A study of Mus musculus with 246 samples.

Results

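The Ifit genes encode interferon-induced proteins with tetratricopeptide repeats, and 5 of them that sit side by side on mouse chromosome 19 were followed here: Ifit1 (ENSMUSG00000034459.9), Ifit1bl1 (ENSMUSG00000079339.8), Ifit2 (ENSMUSG00000045932.13), Ifit3 (ENSMUSG00000074896.4) and Ifit3b (ENSMUSG00000062488.10). They were selected by name, 5 of the 56691 genes in the deposited table, and the selection rested on measured values, because Ifit1bl1 and Ifit2 had stood high in fold changes between conditions in the medial prefrontal cortex and the nucleus accumbens of the mice without social interaction. Values from that comparison are therefore given as a description with no test. All 5 genes passed the filter on low counts in all 6 brain regions.

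RNA was sequenced from tissue punches of 6 regions, the dorsal midline thalamus (DMT), ventral hippocampus (vHipp), basolateral amygdala (BLA), nucleus accumbens (Nacc), anterior cingulate cortex (ACC) and medial prefrontal cortex (mPFC), of 41 outbred adult male CD1 mice. Ctrl_Veh mice were raised with standard bedding by dams that received an empty depot gel. ELA_Veh mice were raised under early life adversity (ELA), limited bedding and nesting from the second to the ninth postnatal day, by dams given the same empty gel. ELA_SAFit2 mice were raised under the same adversity by dams given the gel with SAFit2, an inhibitor of the stress-response co-chaperone FKBP51 that reaches the pups through the milk. A group with standard bedding and SAFit2 was not analysed here. As adults, the mice either had no social interaction before tissue collection (NI, 7 mice in each condition) or a social interaction of 10 min (SI, 6 Ctrl_Veh, 7 ELA_Veh and 7 ELA_SAFit2 mice). Whole litters were assigned to a condition and the labels do not give the litter, so litter and condition cannot be told apart.

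Type I interferons bind the receptor Ifnar1/Ifnar2, which acts through kinases such as Tyk2 and through factors such as Irf9 on interferon-stimulated response elements in the promoters of many antiviral genes. The Ifit genes are among the most strongly induced of these targets, and some are also induced directly by the sensors of viral nucleic acid. IFIT1 binds viral RNA whose cap lacks the methylation of host mRNA, IFIT2 and IFIT3 form complexes with it or with each other, and Ifit3b is a near copy of Ifit3. Ifit1bl1, like its neighbour Ifit1bl2, is a gene related to Ifit1 whose function is little known. In the annotation the order along the chromosome is Ch25h, Lipa, Ifit2, Ifit3, Ifit1bl1, Ifit3b, Ifit1bl2, Ifit1, Slc16a12, Pank1 and Kif20b, with Ifit1bl1 and Ifit1bl2 on the opposite strand to the other Ifit genes.

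The stretch from base -200 to base -71, counted from the start of transcription, is shown for each gene because it holds most matches to the core of the response element, and because the members differ in them. Capitals mark matches to GAAANNGAA or, on the other strand, TTCNNTTTC, and overlapping matches run together. Sequences are from RefSeq (build GRCm38.p6) and are written 5′ to 3′ on the strand of the gene. Ifit3 lies at chr19:34583329-34583458 (plus strand), Ifit3b at chr19:34607757-34607886 (plus), Ifit1 at chr19:34640689-34640818 (plus), the upstream of the 2 Ifit1bl1 starts at chr19:34602039-34602168 (minus) and the downstream of the 2 Ifit2 starts at chr19:34550888-34551017 (plus).
Ifit3: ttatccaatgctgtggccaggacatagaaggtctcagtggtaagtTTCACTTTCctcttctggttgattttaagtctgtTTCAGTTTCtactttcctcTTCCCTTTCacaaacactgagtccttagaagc
Ifit3b: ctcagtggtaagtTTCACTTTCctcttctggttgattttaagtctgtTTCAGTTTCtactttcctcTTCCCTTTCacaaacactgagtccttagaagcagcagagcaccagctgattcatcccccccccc
Ifit1: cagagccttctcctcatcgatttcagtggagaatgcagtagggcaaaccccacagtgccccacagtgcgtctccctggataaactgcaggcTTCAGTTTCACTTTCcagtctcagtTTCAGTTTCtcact
Ifit1bl1: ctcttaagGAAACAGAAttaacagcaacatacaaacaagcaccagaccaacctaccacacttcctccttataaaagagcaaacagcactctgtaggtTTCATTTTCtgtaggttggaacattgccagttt
Ifit2: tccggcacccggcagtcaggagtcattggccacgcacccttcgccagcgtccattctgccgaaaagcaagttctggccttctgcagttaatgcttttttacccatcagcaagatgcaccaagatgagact

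Within the 300-base window that runs from 250 bases before to 50 bases after each start, Ifit3, Ifit3b and Ifit1 each held 3 matches. The 2 starts of Ifit1bl1 each held 2 matches, and neither of the 2 windows of Ifit2 held any, which says only that these letters are not in those windows. Of 32851 such windows over all genes, 2812 (8.56%) held at least 1 match and 21 (0.0639%) held 3 or more. The upstream stretches of Ifit3 and Ifit3b carry the same 3 matches in the same order and at the same spacing. The transcripts are as alike: Ifit3 and Ifit3b shared 98% of bases over an alignment of 1697 bases, Ifit1bl1 and Ifit1bl2 shared 90.9% over 2159 bases, and Ifit1 and Ifit1bl1 shared 88.2% over 711 bases.

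This likeness limits what the counts can separate. Of the 31-base windows in the Ifit3 transcript, 61.8% also occur in another transcript, in each case Ifit3b, and of those in Ifit3b 55.2% are shared. The estimated count was not a whole number in any library for both Ifit3 and Ifit3b (100% of libraries), so reads were divided between them by the estimate in every library. For Ifit1bl1, 19.3% of windows were shared (18.7% with Ifit1bl2) and 7.32% of libraries had a count that was not whole. For Ifit1 these shares were 10.5% and 37.4%. Ifit2 shared no window with another transcript and its counts were whole in all libraries, which makes it the member with the least doubt about the origin of its reads. It also had the highest counts, 117 to 1338 per library (median 397). Ifit1 had 3 to 154 (median 20), Ifit3 1 to 240 (median 25.5), Ifit3b 23 to 266 (median 57.2) and Ifit1bl1 0 to 126 (median 40.5).

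Total counts per library lay between 20804247 and 43351424 (median 28844788). Markers of the regions, in CPM (counts scaled to a common library size), followed the labels. The summed thalamus markers Slc17a6, Tcf7l2 and Lef1 had a median of 1280 CPM in the DMT and of at most 49.8 CPM in another region. The striatal neuron markers were highest in the Nacc (median 2200 CPM, range 767 to 3060), while BLA punches also held striatal neuron markers (median 907 CPM) and choroid plexus markers (median 2630 CPM). In the Nacc, 12 of 41 libraries, 2 in each of the 6 groups, matched another mouse better than the mouse on their label when 60 genes that vary between mice (none on chromosome 19) were compared with the other regions, and in the other 5 regions no library did. Counts of member calls, and the SI differences between ELA_SAFit2 and ELA_Veh, are given with and without these libraries or that region. Other tests that rest on the Nacc, single pairs of regions among them, use all libraries as labelled. In the mPFC, the names of 40 of 41 libraries lie in another block of numbers than those of the remaining libraries of the study. What this block stands for is not known from the names. A difference between the mPFC and another region cannot be told apart from it. In bulk tissue, fewer cells of a type and less RNA per cell cannot be told apart.

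Ifit2 was the most abundant member per length of transcript in every region, and it was highest in the thalamus. On the scale of CPM per kilobase of the longest transcript, its median over 41 mice was 7.1 in the DMT and between 2.06 (BLA) and 3.69 (mPFC) in the other regions. Ifit1 was the least abundant, with medians of 0.221 (BLA) to 0.403 (DMT) CPM per kilobase. Ifit3b lay between 0.77 and 1.46, Ifit1bl1 between 0.323 (Nacc) and 1.11 (ACC), and Ifit3 between 0.358 and 0.745. Ifit3 and Ifit3b are set side by side here although reads were shared between them.

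**Figure D1:**
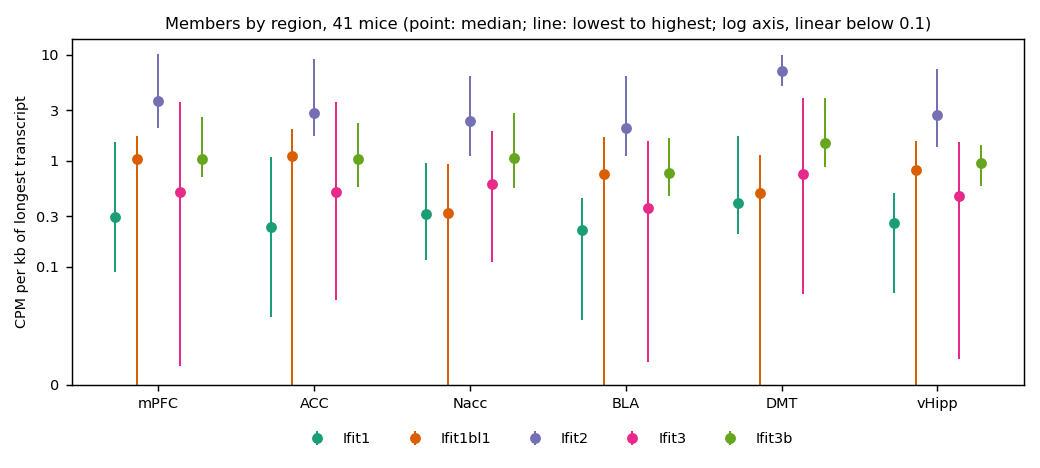
Level of each Ifit gene in CPM per kilobase of the longest transcript in the 6 regions (axis logarithmic above 0.1 and linear below), with the median of 41 mice as a point and a line from the lowest to the highest mouse. Ifit2 is the highest in every region and peaks in the DMT at 7.1, and the lines of Ifit1bl1 reach 0 in all regions.

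Each member differed between regions when all 6 were compared (edgeR quasi-likelihood test, adjusted p = 3.02e-26 for Ifit2, 5.9e-19 for Ifit3b, 6.67e-12 for Ifit1, 9.11e-09 for Ifit1bl1 and 6.51e-05 for Ifit3). Such a difference is common, since 97% of all genes tested passed the same threshold. Over the 15 pairs of regions, 49 of 75 member values passed, against 75.3% of the values of all genes. The count was 12 of 15 for Ifit2 and for Ifit3b, 11 for Ifit1, 8 for Ifit1bl1 and 6 for Ifit3. With the mouse as a block it rose to 56 of 75, with 12 for Ifit1bl1, 13 for Ifit2 and 8 for Ifit3.

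Mean Ifit2 levels over the 41 mice were 28.2 CPM for the DMT, 17.9 for mPFC, 17 for ACC, 13.1 for vHipp, 11.5 for BLA and 10.5 for Nacc. The step from the mPFC to the DMT was 0.69 ± 0.14 (SE) on the log2 scale (edgeR, adjusted p = 1.27e-06), and the DMT exceeded the Nacc by 1.5 ± 0.14 (adjusted p = 1.11e-21). The mPFC and ACC did not differ beyond their spread (adjusted p = 0.765), nor did the BLA and Nacc (adjusted p = 0.52). The vHipp was lower than the ACC by 0.4 (log2 difference -0.4, adjusted p = 0.00599). The vHipp and BLA differed with the mouse as a block (0.22, adjusted p = 0.0134) and not without it (0.24, adjusted p = 0.113).

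Ifit1bl1 ran in another order. Its means were 2.12 CPM for the mPFC, 2.11 for ACC, 1.85 for BLA, 1.55 for vHipp, 0.96 for DMT and 0.767 for Nacc, so that it was low in the thalamus, where the other members were highest. The DMT fell below the BLA by 0.94 ± 0.27 (log2 difference -0.94, edgeR adjusted p = 0.000787) and the vHipp exceeded the DMT by 0.76 ± 0.27 (adjusted p = 0.00731). The DMT and Nacc did not differ beyond their spread (0.27 ± 0.28, adjusted p = 0.378), and neither did the mPFC and ACC (adjusted p = 0.984). The BLA and ACC (adjusted p = 0.369) and the vHipp and BLA (adjusted p = 0.535) did not differ either, although the first of these pairs passed with the mouse as a block (-0.27, adjusted p = 0.0357).

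Ifit3b, Ifit1 and Ifit3 shared the order of Ifit2 at its ends only in part. All were highest in the DMT and lowest in the BLA. Ifit3b fell from 3.06 CPM in the DMT to 1.61 in the BLA (log2 difference between them 0.95 ± 0.09, edgeR adjusted p = 4.95e-20), Ifit1 from 1.23 to 0.61 CPM (1.03 ± 0.14, adjusted p = 3.26e-12) and Ifit3 from 1.59 to 0.761 CPM (1.03 ± 0.21, adjusted p = 1.74e-06). Between those ends lay the mPFC, Nacc, ACC and vHipp, at 2.4, 2.33, 2.22 and 1.92 CPM for Ifit3b, at 0.93, 0.894, 0.699 and 0.725 CPM for Ifit1, and at 1.31, 1.21, 1.13 and 0.991 CPM for Ifit3. The DMT exceeded the mPFC in Ifit3b (0.31 ± 0.09, adjusted p = 0.000951) and Ifit1 (0.38 ± 0.13, adjusted p = 0.00584), and did not differ from it beyond the spread in Ifit3 (0.24 ± 0.2, adjusted p = 0.25).

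Within a region, the level of Ifit1bl1 was not spread evenly over the mice. In 7 mice it was at or near 0, and in the other 34 it was clearly detected. In the mPFC those 7 mice had at most 0.109 CPM and the other 34 had at least 1.04 CPM. The same 7 mice were lowest in the ACC (at most 0.0718 against at least 1.05 CPM), the BLA (0.0773 against 1.07), the DMT (0.055 against 0.396) and the vHipp (0 against 0.65). In the 35 libraries of these mice outside the Nacc the count of Ifit1bl1 was 0 to 3, and it was 0 in 23 of them, whereas the 170 libraries of the other mice held 12 to 126 counts. A count of 0 allows up to 3 counts, or 0.104 CPM at the median total, and covers counting error only.

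The 7 mice were spread over 3 of the 6 groups. They were 4 of 7 ELA_Veh NI mice (mice 37, 43 and 69 among them), 2 of 7 ELA_Veh SI mice (mice 61 and 93) and 1 of 6 Ctrl_Veh SI mice (mouse 57), and none was in Ctrl_Veh NI or in the ELA_SAFit2 groups. Because the gene was followed for its difference between the NI groups, this distribution is a description, and a test of it over NI mice would repeat the choice.

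**Figure D2:**
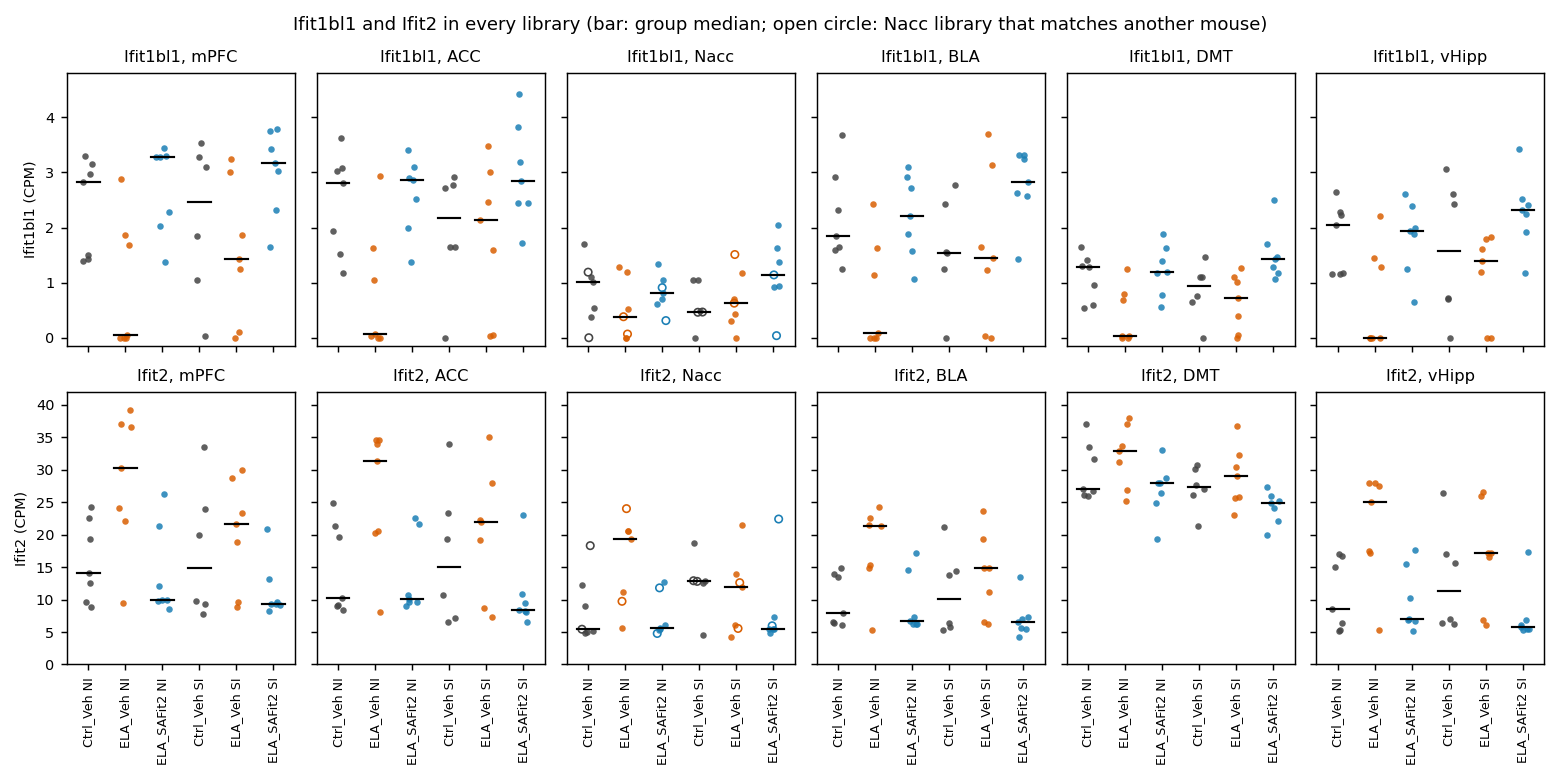
Ifit1bl1 (upper row) and Ifit2 (lower row) in CPM in every library by region and group, with a bar at the group median and open circles for Nacc libraries that match another mouse. Outside the Nacc, Ifit1bl1 values at or near 0 occur in ELA_Veh NI (4 mice), ELA_Veh SI (2) and Ctrl_Veh SI (1).

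Ifit2 was highest where Ifit1bl1 was at or near 0. In the mPFC, ACC, BLA and vHipp the 7 mice lowest in Ifit1bl1 were the 7 mice highest in Ifit2. The lowest Ifit2 value among them was 28.7 CPM in the mPFC against a highest value of 26.3 CPM among the other 34 mice, and the corresponding pairs were 27.9 and 24.8 CPM in the ACC, 19.4 and 17.2 CPM in the BLA, and 25 and 17.6 CPM in the vHipp. In the DMT, where Ifit2 was high in all mice, 4 of the 7 were among the 7 highest, and the groups of values overlapped (30.4 and 37.1 CPM).

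The remaining mice also fell apart in Ifit2. The widest gap between neighbouring mice separated the same 21 lower from the same 20 upper mice in 4 regions. In the mPFC the lower mice had 7.77 to 14.1 CPM and the upper mice 18.9 to 39.2 CPM. In the ACC the edges of the gap were 10.8 and 19.1 CPM, in the BLA 7.86 and 11.1 CPM, and in the vHipp 10.3 and 15 CPM. In the DMT the lower 21 mice ranged from 19.4 to 28 CPM and the upper 20 from 23 to 38 CPM, so the ranges overlapped, and 17 of the 21 were among the 21 lowest. The mice thus took 3 levels: 21 with low Ifit2 and clear Ifit1bl1, 13 between, and 7 with the highest Ifit2 and Ifit1bl1 at or near 0.

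By group, the numbers at these levels (low Ifit2, between, Ifit1bl1 near 0) were 4, 3 and 0 in Ctrl_Veh NI, 1, 2 and 4 in ELA_Veh NI, and 5, 2 and 0 in ELA_SAFit2 NI. In the SI set they were 3, 2 and 1 in Ctrl_Veh, 2, 3 and 2 in ELA_Veh, and 6, 1 and 0 in ELA_SAFit2. Each group held mice of at least 2 levels.

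**Figure D3:**
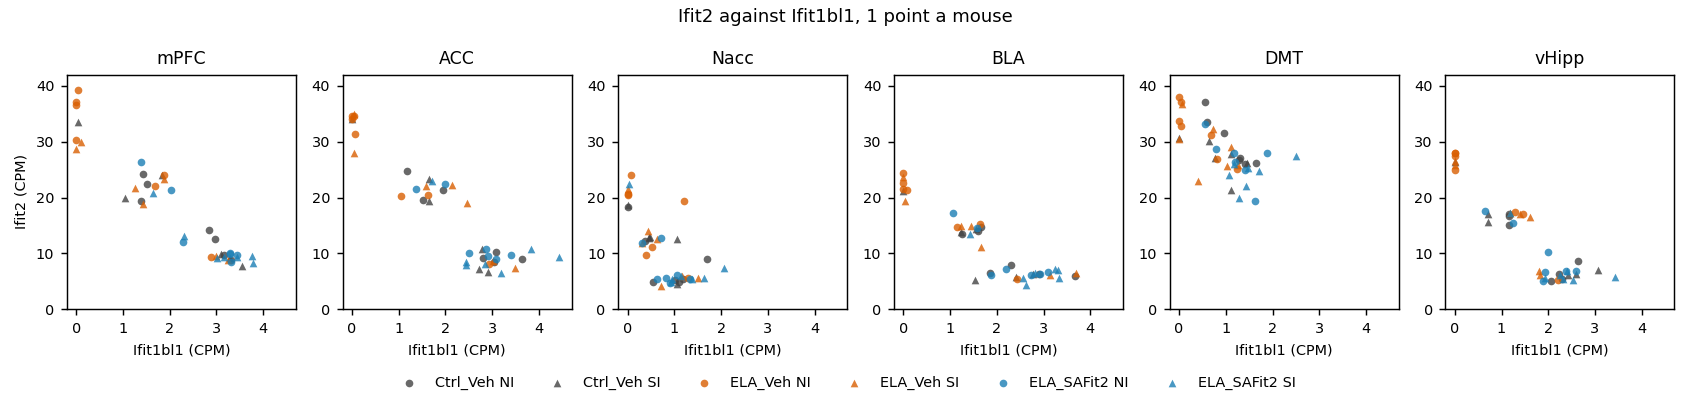
Ifit2 against Ifit1bl1 in CPM, 1 point per mouse and 1 panel per region, with colour for the condition, circles for NI and triangles for SI. In the mPFC, ACC, BLA and vHipp the points form 3 clouds of 7, 13 and 21 mice, and in the DMT the clouds run together.

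Because the mice lie in separate clouds, no correlation within a region is given for Ifit1bl1 with Ifit2. Other genes of the locus went along with them. The 7 mice with the least Ifit3 were the same 7 mice in the BLA, DMT and vHipp, and 6 and 5 of them were in the mPFC and ACC. Ifit1bl2, which shares sequence with Ifit1bl1, was lowest in 7, 6, 7, 6 and 7 of the same mice in the mPFC, ACC, BLA, DMT and vHipp, with medians over all mice of 0.236 (DMT) to 0.502 CPM (mPFC). Of the 21 mice with the least Lipa, the lysosomal acid lipase gene beside Ifit2, all 21 in the DMT, 19 in each of ACC and vHipp, 18 in the mPFC and 14 in the BLA were among the 21 with low Ifit2.

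In the Nacc these levels did not follow the mouse on the label. Of the 7 mice, 5 were among the 7 lowest Nacc libraries in Ifit1bl1, and 17 of the 21 mice with low Ifit2 were among the 21 lowest. In the 29 mice whose Nacc library matched its label, the pattern was present in part. Ifit1bl1 was 0 CPM in the 4 of the 7 mice that remained and at least 0.296 CPM in the other 25, and Ifit2 was at most 9.04 CPM in 17 lower mice and at least 11.1 CPM in the rest. The 4 mice without Ifit1bl1 were not set apart in Ifit2, since the lowest of them had 18.7 CPM and the highest of the other 25 had 19.4 CPM. The Nacc library of an ELA_SAFit2 SI mouse had 22.4 CPM of Ifit2 and 0.0376 CPM of Ifit1bl1, while the BLA of that mouse had 5.68 and 2.57 CPM. That library matched mouse 69 (ELA_Veh NI), whose BLA had 21.5 and 0 CPM.

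The regions of a mouse agreed most in Ifit1bl1 and least in Ifit1. The share of the variance (log2(CPM + 0.5), after taking out group and region means) that lay between mice was 0.8 for Ifit1bl1, 0.7 for Ifit2, 0.49 for Ifit3, 0.2 for Ifit3b and 0.18 for Ifit1. The median over 15173 genes was 0.09. Without the Nacc these shares were 0.91, 0.8, 0.61, 0.21 and 0.21, beside a median of 0.11. Ifit1bl2 (0.69) and Lipa (0.63) were also high over the 5 regions. Over the 10 pairs of those regions, Pearson's r across the 41 mice ran from 0.9 to 0.96 for Ifit1bl1, from 0.67 to 0.97 for Ifit2, from 0.53 to 0.77 for Ifit3, from 0 to 0.4 for Ifit3b and from -0.05 to 0.44 for Ifit1. The points of each correlation share the animal and its group mean, and for Ifit1bl1 and Ifit2 they follow the separate clouds.

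The high agreement of Ifit3 did not carry over to the pair of near copies. When Ifit3 and Ifit3b were summed before scaling, the share between mice over the 5 regions was 0.24, close to that of Ifit3b. How much of the agreement of Ifit3 comes from the way its reads were divided from those of Ifit3b was not tested.

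Ifit1 and Ifit3b kept most closely together in the mPFC. Pearson's r over 41 mice (with Spearman's rho after it) was 0.71 (0.68) for mPFC, 0.56 (0.39) for ACC, 0.54 (0.51) for Nacc, 0.39 (0.07) for DMT, 0.32 (0.27) for BLA and 0.17 (0.18) for vHipp libraries. Without the 2 mice farthest from the median of Ifit1, r was 0.68, 0.35, 0.48, -0.02, 0.33 and 0.27 in the same order, so the value in the DMT rests on those 2 mice and that of the ACC fell below that of the Nacc. Ifit1 and Ifit1bl1 were weakly and negatively related in all 6 regions (r = -0.38 to -0.03). The pairs share the library and its depth, and these values are a description.

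In 3 regions a single library was the highest in Ifit1, Ifit3 and Ifit3b together. The mPFC of mouse 41 (Ctrl_Veh NI) had 3.99 CPM of Ifit1, 6.3 of Ifit3 and 5.17 of Ifit3b, the highest mPFC values of all 3 genes, although Ifit3b reached 4.9 CPM in another mouse. The ACC of mouse 15 (ELA_SAFit2 NI) had 2.86, 6.29 and 4.59 CPM, the highest in the ACC, and its mPFC was the third highest of 41 in Ifit1 (2.16 CPM) and Ifit3 (3.5 CPM). The DMT of an ELA_SAFit2 SI mouse, the mouse whose Nacc library is described above, had 4.55, 6.82 and 7.85 CPM, the highest in the DMT. Ifit2 was not the highest of the region in these libraries: it was 12.5, 10.7 and 26 CPM, beside medians over all mice of 14.1, 10.8 and 27.1 CPM. All 3 mice belong to the lower Ifit2 level, which ran from 7.77 to 14.1 CPM (mPFC), 6.55 to 10.8 (ACC) and 19.4 to 28 (DMT). In the mPFC and the ACC the value thus lay in the upper part of that level. Within it, only mice 65 (14.1 CPM) and 79 (13.2 CPM) were higher in the mPFC.

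The NI set is the comparison that the genes were selected on. In all 6 regions its ELA_Veh mice had less Ifit1bl1 and Ifit3 and more Ifit2 than its Ctrl_Veh mice. ELA_SAFit2 mice lay near Ctrl_Veh mice in Ifit1bl1 and Ifit2. Reads of Ifit3 were divided from those of Ifit3b by estimate, and values for the pair as a single gene are given below. In the mPFC, Ifit1bl1 had a lowest, median and highest value of 1.39, 2.83 and 3.3 CPM in Ctrl_Veh, 0, 0.0457 and 2.88 CPM in ELA_Veh, and 1.38, 3.28 and 3.44 CPM in ELA_SAFit2. The ELA_Veh group reached from 0 into the range of the others, as its 4 mice near 0 and 3 mice above them require. Ifit2 in the same region had 8.89, 14.1 and 24.2 CPM in Ctrl_Veh, 9.4, 30.3 and 39.2 CPM in ELA_Veh, and 8.55, 10 and 26.3 CPM in ELA_SAFit2, so all 3 groups overlapped.

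The log2 differences between ELA_Veh and Ctrl_Veh in the NI set, with all Nacc libraries included as labelled, ran from -1.62 (ACC) to -0.8 (Nacc) for Ifit1bl1, from 0.11 (DMT) to 1.01 (vHipp) for Ifit2 and from -2.17 (mPFC) to -0.63 (Nacc) for Ifit3. Those between ELA_SAFit2 and ELA_Veh share the ELA_Veh mice. They ran from 0.76 to 1.69 for Ifit1bl1, from -1.11 to -0.26 for Ifit2 and from 0.44 to 1.96 for Ifit3. With Ifit3 and Ifit3b counted as a single gene, ELA_Veh differed from Ctrl_Veh by -0.86 (mPFC), -0.43 (BLA), -0.42 (DMT) and -0.11 (ACC). For Ifit3 alone these were -2.17, -1.4, -1.46 and -0.91. ELA_SAFit2 differed from ELA_Veh by 0.65, 0.58, 0.44 and 0.64 for the single gene in the same order, beside 1.96, 1.65, 1.34 and 1.76 for Ifit3. Ifit1 and Ifit3b had no common direction over the regions (ELA_Veh against Ctrl_Veh, -1.08 to 0.45 and -0.34 to 0.5). Between ELA_SAFit2 and Ctrl_Veh the differences were -0.05 to 0.19 for Ifit1bl1, -0.22 to -0.1 for Ifit2 and -0.21 (mPFC) to 0.85 ± 0.47 (ACC) for Ifit3. The ACC group holds mouse 15, and without it the Ifit3 difference was 0.29 ± 0.45. The 6 regions come from the same 21 animals, whose Ifit1bl1 and Ifit2 levels agreed between regions, and are not separate evidence.

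The SI set holds other mice, and in it the conditions could be tested. None of the 30 member values (5 genes in 6 regions) passed the threshold in any of the 3 comparisons (edgeR quasi-likelihood test, adjusted over all genes tested in a region). Among all genes, the share past the threshold was 0.00105% for ELA_Veh against Ctrl_Veh, 0% for ELA_SAFit2 against ELA_Veh and 0% for ELA_SAFit2 against Ctrl_Veh. At an unadjusted p under 0.05, 0 of 30, 11 of 30 and 3 of 30 member values passed, against 4.91%, 3.87% and 4.72% of the values of all genes. The values of a mouse in several regions are not independent, and DESeq2 called 0 of 30 as well.

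Between ELA_SAFit2 and ELA_Veh mice of the SI set, Ifit2 was lower in 6 of 6 regions. In the vHipp it had a lowest, median and highest value of 6.09, 17.1 and 26.5 CPM in ELA_Veh and 5.33, 5.84 and 17.3 CPM in ELA_SAFit2, and the groups overlapped. The log2 difference there was -1.15 ± 0.39 (edgeR, unadjusted p = 0.0052, adjusted p = 1). In the other regions it was -0.96 ± 0.35 (BLA), -0.94 ± 0.37 (ACC), -0.82 ± 0.34 (mPFC), -0.41 ± 0.39 (Nacc) and -0.26 ± 0.11 (DMT), and in counts summed over the regions of a mouse it was -0.66 ± 0.26 (adjusted p = 0.983). Ifit3 was higher in 6 of 6 regions, by 0.75 (Nacc) to 1.68 ± 0.47 (DMT, adjusted p = 0.656), and by 1.21 ± 0.37 in the sum (adjusted p = 0.855). With Ifit3 and Ifit3b counted as a single gene the difference was 0.21 (BLA) to 0.9 (DMT, adjusted p = 0.549), and 0.45 in the sum (adjusted p = 0.957). Ifit1bl1 was higher by 0.73 (ACC) to 1.21 (DMT), with no unadjusted p under 0.05. Without the 12 doubtful Nacc libraries the Nacc differences were -1.01 for Ifit2, 1.08 for Ifit3 and 1.43 for Ifit1bl1 (with all libraries -0.41, 0.75 and 0.78), each with an adjusted p of 1. Without the Nacc the summed differences of Ifit2 and Ifit3 were -0.7 and 1.32 (adjusted p = 0.995 for both).

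Between ELA_SAFit2 and Ctrl_Veh mice of the SI set, the smallest p-values were in the DMT. Ifit3b had a lowest, median and highest value of 1.75, 2.48 and 3.1 CPM in Ctrl_Veh and 2.91, 3.14 and 7.85 CPM in ELA_SAFit2 (log2 difference 0.7 ± 0.18, edgeR unadjusted p = 0.00035, adjusted p = 0.3). Ifit1 had 0.709, 1.01 and 1.2 CPM in Ctrl_Veh and 0.858, 1.6 and 4.55 CPM in ELA_SAFit2 (0.94 ± 0.29, adjusted p = 0.547). The highest value of both genes was that of the mouse with the high DMT library described above. Without it the differences were 0.42 ± 0.14 for Ifit3b (adjusted p = 0.637) and 0.54 ± 0.24 for Ifit1 (adjusted p = 0.993), and that of Ifit3 against ELA_Veh was 1.34 ± 0.47 (adjusted p = 0.962). Between ELA_Veh and Ctrl_Veh mice no member had an unadjusted p under 0.05, and the log2 differences lay between -0.82 (Ifit3, ACC) and 0.37 (Ifit1, ACC).

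**Figure D4:**
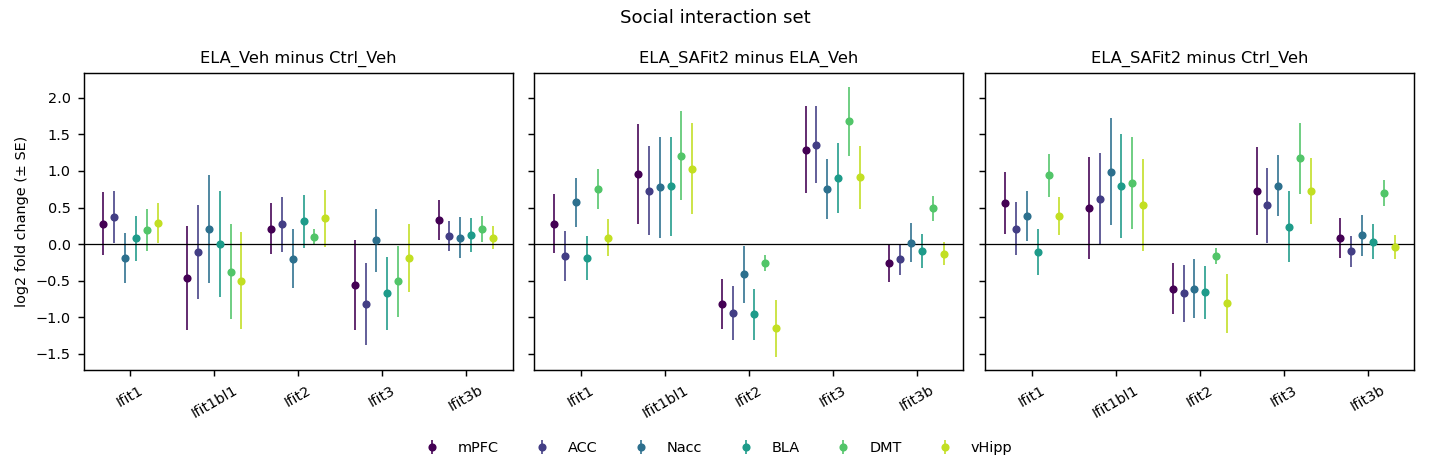
Log2 fold changes (points) with their standard errors (lines) of the 5 Ifit genes in the 6 regions for the 3 comparisons of conditions in the SI set. For ELA_SAFit2 minus ELA_Veh, Ifit2 lies below 0 and Ifit1bl1 and Ifit3 lie above 0 in all 6 regions, and none passed the threshold.

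Ifit1 was lower in the ACC of mice with a social interaction of 10 min, a call that was lost when a single mouse was left out. Its lowest, median and highest values were 0.482, 0.631 and 0.986 CPM in Ctrl_Veh NI and 0.186, 0.453 and 0.882 CPM in Ctrl_Veh SI. In ELA_Veh they were 0.679, 0.848 and 1.08 CPM in NI and 0.153, 0.542 and 1.21 CPM in SI. In ELA_SAFit2 they were 0.599, 0.712 and 2.86 CPM in NI and 0.311, 0.596 and 0.81 CPM in SI. The SI median was lower in all 3 conditions, and the ranges overlapped in all 3.

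The mean of the 3 log2 differences was -0.65 ± 0.2 (edgeR, adjusted p = 0.049), at a median Ifit1 count of 20 per library, and 4.15% of all genes passed in the ACC. A permutation test of log2(CPM + 0.5) with the set exchanged within conditions (100000 resamples, two-sided) gave a difference of -0.37 and an unadjusted p = 0.0006. It was run on this value only, chosen after the data were seen, and on the same libraries with mouse 15 included. It is therefore not separate support for the call. The call rested on mouse 15 of ELA_SAFit2 NI: without it the difference was -0.49 ± 0.16 (adjusted p = 0.0884). It was also lost without the filter on low counts (adjusted p = 0.0586) and kept with DESeq2 (adjusted p = 0.0272). These mice of the NI set include those on which the genes were selected, although the selection rested on differences between conditions and not between sets.

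No other member value passed. Ifit1 had log2 differences of -0.43 in the mPFC (edgeR adjusted p = 0.324), -0.31 in the BLA (0.425), -0.17 in the Nacc, 0.15 in the DMT and 0.05 in the vHipp. Whether the ACC differs from the other regions in this response was not tested. Ifit3b was lower in 6 of 6 regions, by 0.05 to 0.27 (log2 differences -0.27 to -0.05, smallest adjusted p = 0.223), and Ifit1bl1 was higher in 6 of 6 (0.12 to 0.35, smallest adjusted p = 0.688). Ifit2 had differences of -0.22 to 0.04 and Ifit3 of -0.38 to 0.5. The shares of all genes that passed were 0% in the Nacc, 1.21% in the vHipp, 1.49% in the BLA, 1.6% in the DMT, 7.4% in the mPFC and 8.56% in the sum over regions, where no member passed.

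**Figure D5:**
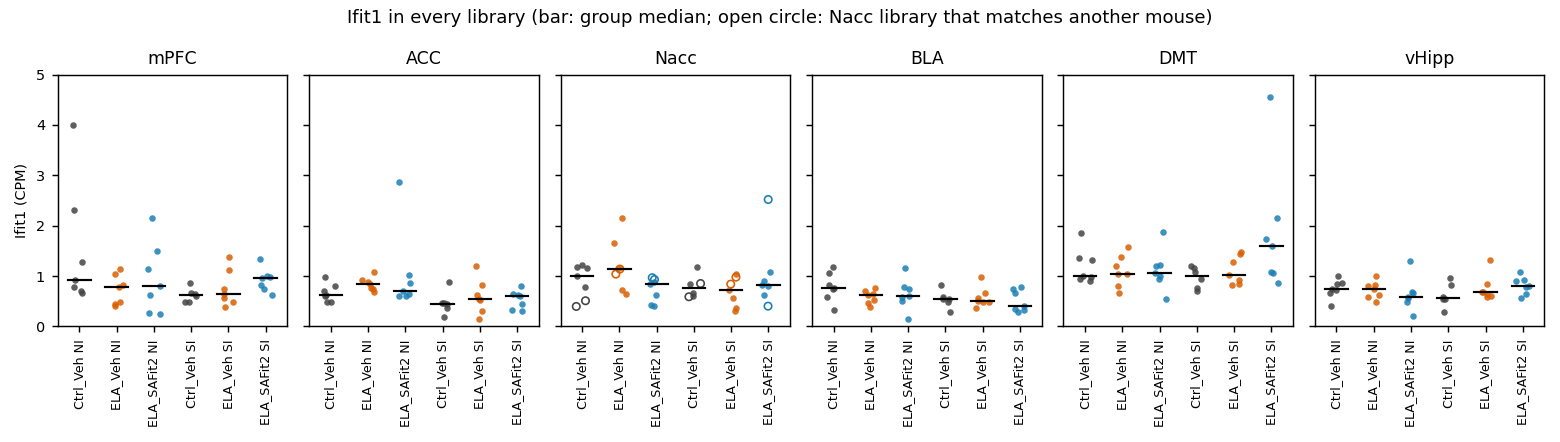
Ifit1 in CPM in every library by region and group, with a bar at the group median and open circles for Nacc libraries that match another mouse. In the ACC the SI medians (0.453 to 0.596 CPM) lie below the NI medians (0.631 to 0.848 CPM), and mouse 15 of ELA_SAFit2 NI stands at 2.86 CPM.

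The genes that carry the interferon signal to the Ifit promoters were present, and the interferons themselves were at the limit of detection. Each of the 10 interferon genes listed (Ifnb1, Ifna1, Ifna2, Ifna4, Ifna5, Ifnk, Ifne, Ifng, Ifnl2 and Ifnl3) had a median of 0 CPM in every region, none could be tested, and their sum reached at most 0.112 CPM. The receptor gene Ifnar1 had a median of 44.9 to 51.5 CPM by region, Ifnar2 of 13.4 to 16.1 CPM, Stat2 of 25.8 to 36.3 CPM and Irf9 of 8.17 to 10.4 CPM. The feedback inhibitors Usp18 (0.264 to 0.445 CPM) and Socs1 (0.306 to 0.935 CPM) were low. In the SI set no gene of these lists passed in any comparison of conditions.

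Between SI and NI, some of the pathway genes passed the test. The share of all genes that passed was 1.6% (DMT), 4.15% (ACC), 7.4% (mPFC) and 8.56% (sum over regions). Each list is short and was looked at in every region. Whether a list held more calls than all genes was not tested. Among 6 receptor genes, 1 rose, Ifngr2 in the DMT (log2 difference 0.13, edgeR adjusted p = 0.00392). Among the 6 signal carriers the kinase gene Jak2 rose (0.17, adjusted p = 0.00392) and Tyk2 fell (-0.1, adjusted p = 0.00765) in the mPFC. Among the sensors of nucleic acid, Cgas fell in the mPFC (-0.32, adjusted p = 0.0291), Tlr3 fell in the ACC (-0.23, adjusted p = 0.00547), and Eif2ak2, the RNA-activated kinase PKR, fell in the ACC (-0.24, adjusted p = 0.0271) and the DMT (-0.22, adjusted p = 0.0316). In the ACC 2 of 9 sensors tested thus fell, and the median of the 9 was -0.12, with a median of 0 over all genes. In the DMT, where Eif2ak2 fell as well, Ifit1 had a log2 difference of 0.15 and did not pass. Whether the sensors and Ifit1 are related was not tested. Of the 6 genes that limit the signal, Ptpn2 rose in the sum over regions (0.05, adjusted p = 0.0283).

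Of 43 other interferon-stimulated genes listed, 37 were tested in the ACC and none passed, beside 4.15% of all genes there. Their median log2 difference was -0.13. Over the 6 regions 36 to 40 were tested and none passed in any region, and in the sum over regions Gbp3 (-0.2, adjusted p = 0.0364) and Samhd1 (-0.05, adjusted p = 0.0428) fell among 41 tested. Some cell type markers passed in the ACC, beside 4.15% of all genes. The microglial gene P2ry12 fell (-0.17, edgeR adjusted p = 0.00349), as did the endothelial Slco1a4 (-0.18, adjusted p = 0.0073) and the astrocytic Gja1 (-0.1, adjusted p = 0.041). The endothelial Ly6c1 rose (0.28, adjusted p = 0.00725), opposite to Slco1a4. Ly6c1 also passed in the mPFC (0.34), BLA (0.28), DMT (0.28) and vHipp (0.26), where Ifit1 did not pass. In the ACC the other 5 of 6 microglial, 3 of 5 endothelial and 4 of 5 astrocytic markers tested did not pass. The part of these markers in the Ifit1 result was not tested. T cell and NK cell markers summed to at most 0.303 CPM in any library.

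Over the 41 mice, the genes whose levels (log2 CPM averaged over the 5 regions outside the Nacc, as deviations from group means) ran most like the mean of the 5 Ifit genes were, among 13705 genes, Myo1f (r = 0.59), Lmf2 (0.58), Lurap1 (0.55), Cdh5 (0.55), Vwf (0.54), Gm3604 (0.54), Rtp4 (0.54), Prcp (0.53), Ptprr (0.53) and Ctnnbip1 (0.53). Rtp4 is an interferon-stimulated gene, and Cdh5 and Vwf are expressed in endothelium. For single members, with genes named after their values were seen, Ifit1 ran most like the interferon-stimulated genes Oasl2 (0.69) and Trim30a (0.62) and the phosphatase gene Cdc14a (0.62). Ifit2 ran most like its neighbour Lipa (0.88), then Trim30a (0.66), Cavin2 (0.63), Parp14 (0.63) and Ifit3b (0.61), of which Lipa and Ifit3b lie on chromosome 19. Ifit1bl1 ran most like Ifit3 (0.73) and most opposite to Lipa (-0.86) and Ifit2 (-0.85). Of the 20 genes most related to Ifit1bl1 in either direction, 6 lay on chromosome 19, which holds 3.41% of the genes compared. The mice share group means and, for Ifit1bl1 and Ifit2, the separate clouds, so these values describe likeness only.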

How the data were processed

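Poly(A) RNA of bilateral punches was sequenced with a stranded kit from RNA with an integrity number over 7, as the labels state. The authors deposited estimated counts per gene, which the table's name credits to salmon, with no scaling to depth or length. Their processing notes name STAR, DESeq2 and GRCm39 (mm39). Versions and the annotation release are not given in the sources used here. Of the values, 12.12% were not whole and were rounded.

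Groups and mouse numbers were taken from the labels, and the mouse number was taken to name the same animal in each region. For 12 Nacc libraries the check of identity did not bear this out. The 5 genes, the gene lists and the tests were chosen with earlier results of these data known. Genes were matched to GENCODE M21 (52073 of 56691) or, for 978, to RefSeq by symbol, and the other 3640 were not used. Within each region, protein-coding genes were kept where counts summed to 100 or more and 6 or more libraries held a count, and were fitted with edgeR 4.0.16 (R 4.3.3) on all 41 libraries, with TMM normalization, the quasi-likelihood test, group means of the 3 conditions in both sets and Benjamini-Hochberg adjustment (threshold 0.05). The same fit was made on counts summed over a mouse's regions and, with group as covariate, over all 246 libraries for the comparison of regions. DESeq2 1.42.0, RLE size factors, no filter, fits without the Nacc or its 12 doubtful libraries, and a mouse block were alternatives. The edgeR fit within a region was run on simulated ACC counts with known changes, and a like fit of BLA against ACC was run on simulated counts. Those counts were drawn independently for each library, so they held no agreement between the regions of a mouse. DESeq2 and the mouse block were not simulated. Levels are CPM from TMM-scaled library sizes. Replicates are separate mice.

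Named genes were the 5 members, list genes past the threshold (at most 5 per list) or acting in the interferon signal, and the 10 genes most like the mean of the members, and 1 listed gene is not reported here. Identity of libraries was checked with 60 genes that vary between mice. Sequences came from RefSeq (GRCm38.p6) and GENCODE M21 transcripts, and all 5 members matched. Of the symbols listed, 3 (Tmem173, Mb21d1 and Rigi) are other names of listed genes and were not in the table. Biopython 1.88, SciPy 1.17.1, pandas 2.3.3, NumPy 2.4.6 and Matplotlib 3.10.9 ran under Python 3.11.15.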

Additional observations from a re-analysis of the deposited data

Results flagged for a closer look

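In 18 of 180 sets of a gene, region and group, the highest or lowest mouse lay apart from the others by Dixon's criterion. For normally distributed values, chance gives this in about 1 in 20 such sets. The CPM values were not checked for this, and those of Ifit2 and Ifit1bl1 lie at separate levels. The 18 of 180 can therefore not be read against 1 in 20. The sets are not independent, because near copies share reads and a mouse appears in several regions. The 18 sets were 4 for Ifit1, 1 for Ifit1bl1, 5 for Ifit2, 5 for Ifit3 and 3 for Ifit3b.

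Mouse 23 (ELA_SAFit2 SI), the only mouse of its group outside the lower Ifit2 level, was high in Ifit2 in the mPFC (20.8 CPM, nearest value 13.2), the ACC (23, nearest 10.8), the BLA (13.4, nearest 7.27) and the vHipp (17.3, nearest 6.85). Its BLA was low in Ifit1bl1 (1.43 CPM, nearest 2.57). In the same group 1 mouse had a DMT library high in Ifit1 (4.55 CPM, nearest 2.15) and Ifit3b (7.85, nearest 3.85). The Nacc library labelled as that mouse, which matched another mouse, was high in Ifit1 (2.52 CPM, nearest 1.09) and Ifit2 (22.4, nearest 7.3).

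In ELA_SAFit2 NI the ACC of mouse 15 was high in Ifit1 (2.86 CPM, nearest 1.03) and Ifit3 (6.29, nearest 2.17), and mouse 39 was high in Ifit3 in the BLA (2.69, nearest 1.06) and the vHipp (2.25, nearest 1.23). In Ctrl_Veh NI, Ifit3 was high in the mPFC of mouse 41 (6.3 CPM, nearest 2.86) and the ACC of mouse 65 (2.55, nearest 1.24). In the SI set, Ifit3b was high in the mPFC of mouse 57 (Ctrl_Veh, 3.39 CPM, nearest 2.13) and mouse 93 (ELA_Veh, 4.48, nearest 2.64), both among the 7 mice with Ifit1bl1 at or near 0, and Ifit1 was high in the vHipp of mouse 59 (ELA_Veh, 1.31, nearest 0.852).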

How the results depend on the processing

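No member passed in the SI comparisons of conditions (count 0) with edgeR, DESeq2, RLE size factors, no filter on low counts, SI libraries only, the Nacc without its 12 doubtful libraries, the sum over 5 regions, or Ifit3 and Ifit3b as a single gene. For SI against NI the count was 1, and 0 with no filter on low counts, where Ifit1 in the ACC kept its log2 difference of -0.65 at an adjusted p of 0.0586. The adjusted p of that value was 0.0272 with DESeq2 and 0.0492 with RLE size factors. Leaving out mouse 15, chosen after seeing the data like the single-gene count, the permutation test and leaving out the high DMT library of an ELA_SAFit2 SI mouse, gave -0.49 and an adjusted p of 0.0884. The cause was not tested. Pairing the regions by the mouse on the label as a replicate block moved the count between regions from 49 to 56 of 75. The 12 doubtful Nacc libraries were part of that fit. A mouse has only 1 condition and set, so no other comparison could be paired. Without the Nacc, agreement between regions rose to 0.91 for Ifit1bl1, 0.8 for Ifit2 and 0.61 for Ifit3. Of the values recomputed under an alternative, 133 kept their direction and side of the threshold or stayed near the reported value, 2 lost a call, 4 moved and none reversed. Counts near 20 per library limit the precision of Ifit1 and Ifit3.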
